A study of Mus musculus with 8 samples.

Results

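The genes of major histocompatibility complex (MHC) antigen presentation and of the immunoproteasome were followed in obstructed mouse kidney. They were every gene whose symbol on the array platform starts with H2-, the prefix of the mouse MHC, plus B2m, Cd74, Ciita, Tap1, Tap2, Tapbp, Psmb8, Psmb9, Psmb10, Psme1, Psme2, Nlrc5 and Erap1. The array carried 91 probes for 52 such genes among its 45281 probes. Of these, 57 probes of 33 genes had a signal above background (detection p under 0.05) on at least 4 of 8 arrays and were tested, among 18601 probes tested in all. Both groups were adult male mice of the strain labelled C57/bk, with kidney RNA taken 7 days after unilateral ureteral obstruction (UUO), an operation that blocks the outflow of urine from 1 kidney. One group had received control antimiR and the other anti-miR-214, an antisense inhibitor directed at the microRNA miR-214. Each group held 4 animals with 1 bead array per animal. Doses and routes were not given in the labels, and kidneys without obstruction were not analysed here.

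MHC class I molecules present peptides from inside the cell on nearly every cell type. They consist of a heavy chain, encoded by the H2-K, H2-D, H2-Q, H2-T and H2-M genes, and the light chain beta-2 microglobulin. Proteasomes cut proteins into these peptides, and under interferon-gamma the catalytic subunits Psmb8, Psmb9 and Psmb10 replace the constitutive ones to form the immunoproteasome. Class II molecules present peptides from endocytosed proteins and are made mainly by dendritic cells, macrophages and B cells, and in injured kidney also by tubule cells. The activator Ciita switches on class II genes and Nlrc5 class I genes, both through the conserved X and Y boxes of these promoters.

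The mature strands of the targeted microRNA are shown because they are what an antisense oligonucleotide of this kind pairs with. The labels do not say which strand was the target. The sequences are from RefSeq (GRCm38.p6), the 3p strand at chr1:162223438-162223459 and the 5p strand at chr1:162223397-162223418, both on the forward strand, with the seed (bases 2 to 8) in capitals.
mmu-miR-214-3p: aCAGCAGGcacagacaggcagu
mmu-miR-214-5p: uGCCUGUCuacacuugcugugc

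The promoter windows below show an element found in some class I heavy chain genes, in the light chain gene and in 1 class II gene. RefSeq promoter sequences (GRCm38.p6, 250 bases before to 50 bases after each start site) were found for 25 of the 33 tested genes, as 28 promoters. They were searched on both strands for the X2 box core TGACG, the Y box core ATTGG, the interferon element (a pair of GAAA runs 2 bases apart) and the gamma-activated site TTCNNNGAA, 4 motifs whose letters do not contain one another. The Y core was in 22 of 28 member promoters and in 37.4% of all 32851 promoters given. The X2 core was in 13 of 28 against 20.8%, the interferon element in 4 against 3.44%, and the gamma-activated site in 3 against 8.30%. An X2 core followed by a Y core on the same strand, with 20 to 30 bases from start to start, was in 7 of 28 member promoters and in 143 of all 32851 (0.435%). That spacing was chosen after the promoters had been seen. The 7 promoters belonged to 6 genes, namely H2-D1, H2-K1, H2-M3, H2-Q7, B2m and H2-Aa. The pair was in 5 of 9 class I promoters (4 of 8 genes), in 1 of 9 class II promoters and in 0 of 6 immunoproteasome and activator promoters. The given promoter of H2-T23, a heavy chain gene that fell, did not hold it. No promoter was given for H2-Ab1, Cd74, H2-Q5 and H2-T10, each with a probe that fell, so these were not searched. The same holds for H2-Q8, Ciita, Tap2 and Nlrc5. The windows lie at chr17:35262973-35263027, forward strand for H2-D1, chr17:34000354-34000408, reverse strand for H2-K1, chr17:37270168-37270222, forward strand for H2-M3 and chr17:35439071-35439124, forward strand for H2-Q7. Those of B2m and H2-Aa lie at chr2:122147589-122147643, forward strand and chr17:34287862-34287917, reverse strand. Each is printed 5′ to 3′ along the gene, with the X2 core and then the Y core in capitals.
H2-D1: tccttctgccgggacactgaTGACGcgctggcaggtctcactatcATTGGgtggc
H2-K1: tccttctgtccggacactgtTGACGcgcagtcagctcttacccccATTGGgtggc
H2-M3: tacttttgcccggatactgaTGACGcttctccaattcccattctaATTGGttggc
H2-Q7: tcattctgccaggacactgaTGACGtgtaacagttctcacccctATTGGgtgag
B2m: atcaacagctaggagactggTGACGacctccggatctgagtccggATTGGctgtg
H2-Aa: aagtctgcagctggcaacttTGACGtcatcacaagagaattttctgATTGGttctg
Among the genes with this pair, some fell after anti-miR-214 (H2-D1, H2-M3, B2m) and others did not pass the test (H2-K1, H2-Q7, H2-Aa), with values given below. A match is a description of these letters and was not tested as a site.

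Several measures of the arrays differed between the groups. Between 18913 and 19513 probes were detected in control animals, against 16852 to 17745 after anti-miR-214 (two-sided exact permutation p = 0.0286, which 4 against 4 cannot go below). Median raw intensity did not pass (exact permutation p = 0.914). The probe gap, the mean log2 distance of a gene's further probes from its brightest probe, ran from -1.77 to -1.70 in controls and from -1.88 to -1.79 in treated animals (exact permutation p = 0.0286). It separated the groups, so its effect and that of the treatment cannot be told apart. On the first principal component (55.8% of the variance) anti-miR-214 replicates 3 and 4 lay at 46.2 and 49.1, farther from the controls than replicates 1 and 2 at 14.5 and 15.4. Counts of calls are also given without replicates 3 and 4 and with the probe gap as a covariate. Across the array 25.6% of tested probes passed an adjusted p of 0.05 (limma, Benjamini-Hochberg over all tested probes), 13.8% lower and 11.8% higher after anti-miR-214. All values are log2 intensities after background correction and quantile normalization, and a change is the anti-miR-214 mean minus the control mean.

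Of the 57 member probes, 15 were lower after anti-miR-214 and 0 were higher. At an unadjusted p under 0.05, 22 of 57 passed, 1 of them higher (H2-Ke6), against 40.2% of all tested probes. The share lower was 26.3%, against 13.8% of all tested probes. The 15 probes belonged to 11 genes: the class I heavy chains H2-D1, H2-M3, H2-Q5, H2-T10 and H2-T23, the light chain B2m, the class II chain H2-Ab1, the immunoproteasome subunit Psmb8, the activator subunit Psme2, the class II chaperone Cd74 and the class I chaperone Tapbp. The median change over the 57 probes was -0.33 against 0.05 over all tested probes, and 45 of 57 (78.9%) lay below 0 against 44.4% of all. In 14 member probes every anti-miR-214 animal lay below every control animal and in 1 (H2-Ke6) above, where 13.8% and 15.1% of all tested probes did (28.9% together). With only the brightest probe of each gene, 9 of 33 genes were lower and 0 higher, against 9.93% and 12.3% of 10734 genes. Without anti-miR-214 replicates 3 and 4, 3 of the 57 member probes were lower (H2-Ab1, H2-M3 and Tapbp), a share near the 5.17% lower over all tested probes in that fit. With the probe gap as a covariate 0 passed and 3 of all 18601 probes did. The number that opens each array name was taken as its slide. By it 6 arrays were on one slide and 2, replicate 4 of each group, on another. Whether the slides mark a processing batch is not stated. Within the first slide alone 4 of 57 member probes were lower (H2-Ab1, H2-M3, Tapbp and Cd74), a share near the 7.92% lower over all tested probes there. Of all 57 member probes, 39 were below 0 within the first slide and 46 between the 2 arrays of the second. Fewer cells of a type and less RNA per cell cannot be told apart in whole kidney.

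**Figure D1:**
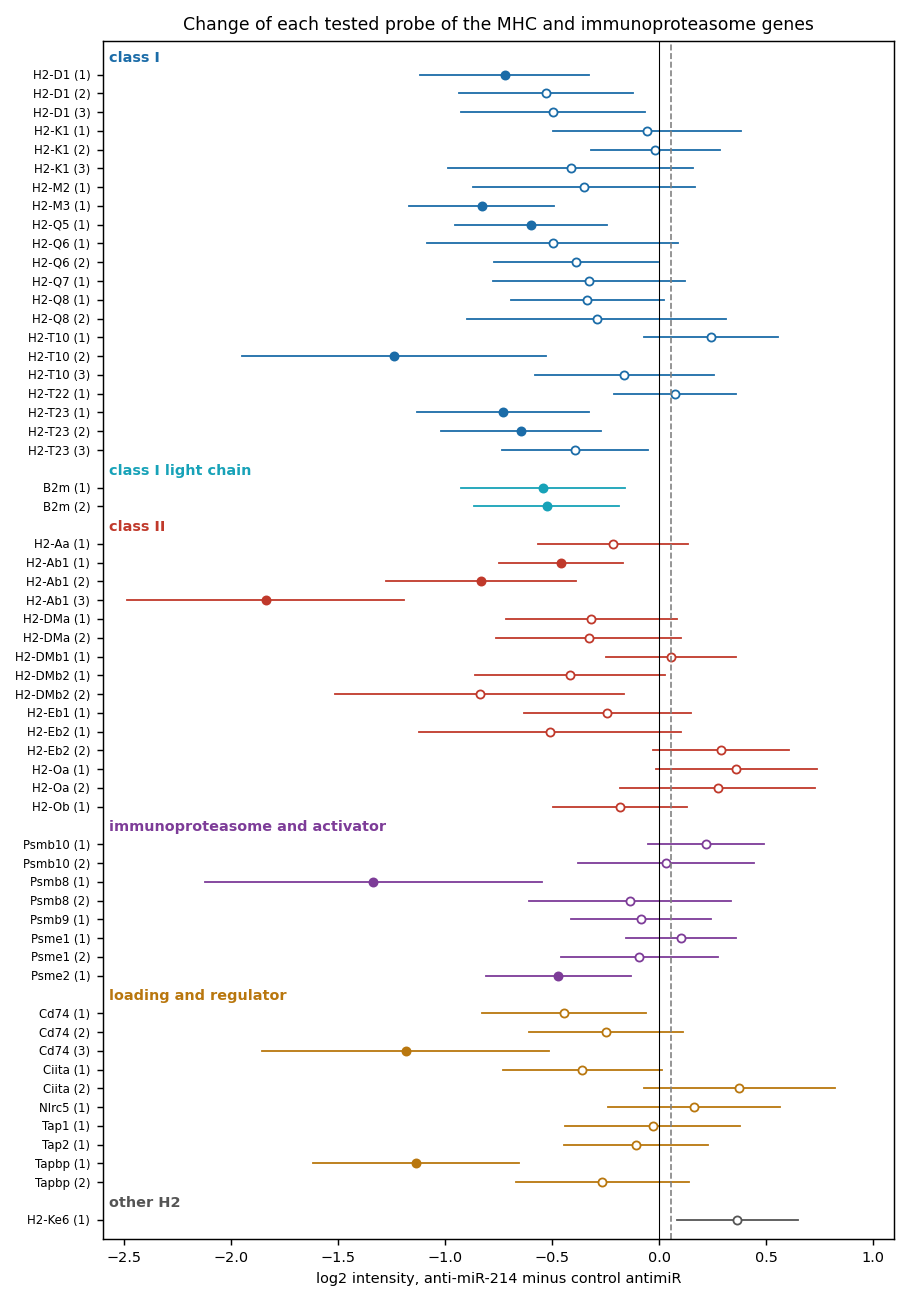
Change in log2 intensity (anti-miR-214 minus control antimiR, horizontal axis) of each of the 57 tested member probes, grouped by role, with the probe's rank by intensity within its gene in brackets. Points are group differences (n = 4 animals each) with 95% confidence intervals from limma, filled points passed the adjusted p of 0.05, and the dashed line is the median of all tested probes (0.05). The 15 filled points all lie to the left of 0.

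Among the class I heavy chains, 6 of 21 tested probes fell (28.6%, against 13.8% of all), in 5 of 11 genes, and 19 of 21 lay below 0 (90.5%, against 44.4%), with a median change of -0.39. H2-D1, a classical heavy chain that presents peptides to cytotoxic T cells, had log2 intensities of 13.01, 12.89, 12.90 and 13.11 in the control animals and 12.46, 12.70, 11.89 and 11.98 in the anti-miR-214 animals at its brightest probe. All 4 treated animals lay below all controls, replicates 3 and 4 farthest. The means were 12.98 ± 0.11 and 12.26 ± 0.39 (SD, n = 4), a 1.65-fold fall (log2 change -0.72, SE 0.18, limma adjusted p = 0.0157). The other probes of H2-D1 changed by -0.53 and -0.50 and did not pass. H2-K1, the other classical heavy chain, read 11.70, 11.42, 11.76 and 11.03 in controls and 11.60, 11.69, 11.45 and 10.96 after anti-miR-214. These groups overlapped, and the change was -0.05 (adjusted p = 0.857, 95% interval -0.49 to 0.38). Its other probes changed by -0.02 and -0.41 and did not pass. No test compared the H2-D1 change with the H2-K1 change. Class I heavy chains are near-identical in places and probe sequences were not used here, so a probe may also measure a paralog.

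The non-classical heavy chains held 5 of the 6 class I calls, over 15 tested probes with a median change of -0.39. Thus 33.3% of these probes were lower, against 13.8% of all tested probes. H2-M3, which presents formylated bacterial peptides, read 8.74, 8.51, 8.66 and 8.82 in controls and 7.93, 8.23, 7.62 and 7.62 after anti-miR-214. The groups did not overlap, and the fall was 1.78-fold (-0.83, SE 0.15, adjusted p = 0.00466). H2-T23, which encodes the Qa-1 molecule seen by natural killer cell receptors, read 11.76, 11.48, 11.86 and 11.77 in controls and 11.23, 11.39, 10.64 and 10.68 in treated animals. It fell 1.66-fold (-0.73, adjusted p = 0.0161) with no overlap, a further probe fell by 0.65 on the log2 scale (adjusted p = 0.0194), and the last changed by -0.39 without passing. H2-Q5 read 11.97, 11.85, 12.05 and 12.35 in controls and 11.20, 11.82, 11.30 and 11.51 after treatment. Treated replicate 2 lay just below the lowest control, and the fall was 1.51-fold (-0.60, adjusted p = 0.0217). H2-T10, a class I-like ligand of gamma-delta T cell receptors, gave probes that disagreed. At its second probe it read 7.44, 7.81, 7.77 and 7.62 in controls and 7.34, 6.88, 5.73 and 5.74 in treated animals, of which 2 of 4 were above background. That probe passed the test (-1.24, adjusted p = 0.019), but it met the detection filter through the control arrays, so the size of its fall is not well measured. With probes detected on all arrays alone it dropped out, and 14 member probes were lower, as were 11.8% of all probes in that fit. In contrast, the brightest H2-T10 probe changed by 0.24 and the dimmest by -0.16, neither passing. The remaining tested heavy chains, H2-M2, H2-Q6, H2-Q7, H2-Q8 and H2-T22, had 7 probes with changes from -0.50 to 0.08, none of which passed.

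Both tested probes of B2m, the light chain that every classical class I molecule needs to reach the surface, were lower. The brighter one read 13.77, 13.89, 13.63 and 13.66 in controls and 13.44, 13.58, 12.84 and 12.92 after anti-miR-214. Replicates 1 and 2 lay just below the lowest control and replicates 3 and 4 well below. The means were 13.74 ± 0.12 and 13.20 ± 0.37 (SD, n = 4), a 1.46-fold fall (-0.54, adjusted p = 0.0425), and the other probe fell by 0.53 on the log2 scale (adjusted p = 0.03). Of the alternatives tried, the brighter B2m probe passed in 10 of 23 and was below 0 in 23.

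**Figure D2:**
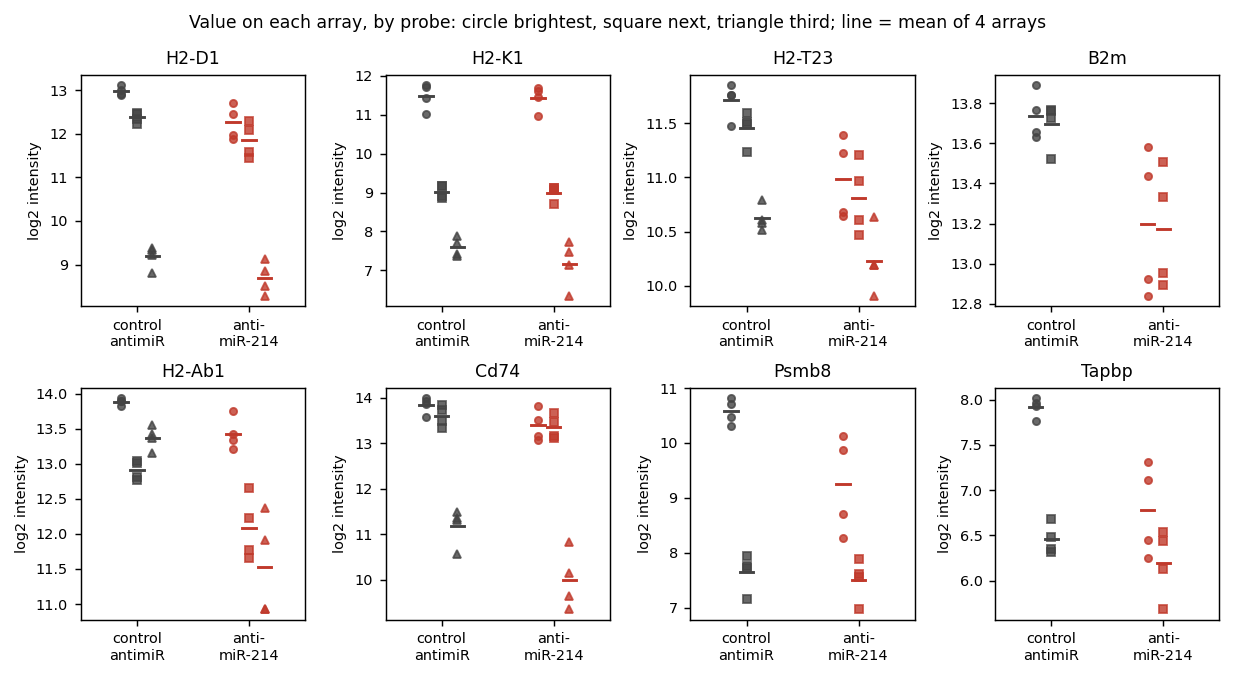
Log2 intensity (vertical axis) on each array for the tested probes of 8 members, control antimiR in grey and anti-miR-214 in red, with circles for a gene's brightest probe, squares for the next, triangles for the dimmest of 3 by mean over all 8 arrays, and lines for the mean of 4 arrays. The brightest H2-D1 probe sits between 12.89 and 13.11 in control and between 11.89 and 12.70 in treated kidneys, while the H2-K1 groups overlap.

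Among the class II genes, 3 of 15 tested probes fell (20%, against 13.8% of all), all of them probes of H2-Ab1, and 11 of 15 lay below 0, with a median change of -0.32. By brightest probe 1 of 9 class II genes was lower (11.1%), near the 9.93% over all genes. H2-Ab1 encodes the beta chain of the mouse I-A molecule. Its brightest probe read 13.94, 13.82, 13.90 and 13.90 in controls and 13.43, 13.76, 13.21 and 13.34 after anti-miR-214. All treated animals lay below all controls, replicate 2 by the smallest distance, and the change was -0.46 (SE 0.13, adjusted p = 0.0281). This call passed in 12 of 23 alternatives. A further probe changed by -0.83 (adjusted p = 0.014). The probe with the largest change of all members read 13.43, 13.15, 13.56 and 13.36 in controls and 11.91, 12.37, 10.93 and 10.93 in treated animals, a 3.58-fold fall (-1.84, SE 0.29, adjusted p = 0.00226). Without replicates 3 and 4 it also passed, with a change of -1.23. With the probe gap as a covariate it changed by -1.04 (adjusted p = 0.614). H2-Aa, the alpha chain that pairs with H2-Ab1, read 12.75, 12.65, 12.91 and 12.32 in controls and 12.45, 12.75, 12.38 and 12.19 in treated animals. The groups overlapped and the change was -0.21 (adjusted p = 0.336, 95% interval -0.56 to 0.14). H2-Eb1, the beta chain of the I-E molecule, changed by -0.24 (adjusted p = 0.327). H2-Ea, its alpha chain, which C57 black mice are known not to make, was detected on 0 arrays. The dimmer beta chain gene H2-Eb2 changed by -0.51 and 0.29 at its 2 probes, neither passing.

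The class II genes that act inside the cell did not pass. H2-DMa, H2-DMb1 and H2-DMb2 form H2-DM, which loads peptides onto class II, and H2-Oa and H2-Ob form its inhibitor H2-O. Of their 8 probes 0 passed (limma) and 1, of H2-DMb2, had an unadjusted p under 0.05, at -0.84 (adjusted p = 0.0658). The other H2-DM probes changed by -0.42 to 0.06. H2-Oa changed by 0.36 and 0.27 and H2-Ob by -0.18.

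Class II partners gave mixed probes. Cd74, the invariant chain that guides class II through the cell, read 13.98, 13.87, 13.92 and 13.57 in controls and 13.52, 13.81, 13.08 and 13.15 after anti-miR-214 at its brightest probe. The groups overlapped and the change was -0.45 (adjusted p = 0.0806). Its dimmest probe read 11.36, 11.32, 11.49 and 10.56 in controls and 10.15, 10.84, 9.36 and 9.64 in treated animals. It fell 2.27-fold (-1.19, SE 0.30, adjusted p = 0.0179), although treated replicate 2 lay above control replicate 4, and its other probe changed by -0.25 (adjusted p = 0.278). Ciita, the transactivator of class II genes, read 9.24, 8.70, 9.32 and 8.94 in controls and 8.58, 9.06, 8.57 and 8.55 in treated animals, a change of -0.36 that did not pass (adjusted p = 0.138). Its dimmer probe changed by 0.37 (adjusted p = 0.191).

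Of the tested members that load and switch on class I (Tapbp, Tap1, Tap2 and Nlrc5), Tapbp alone had a probe that passed. Tapbp encodes tapasin, which bridges class I to the peptide transporter. Its brightest probe read 7.97, 7.76, 8.01 and 7.93 in controls and 7.32, 7.11, 6.45 and 6.25 after anti-miR-214. The groups did not overlap and the fall was 2.20-fold (-1.14, SE 0.22, adjusted p = 0.00537), while the dimmer probe changed by -0.27 (adjusted p = 0.3). Tap1 and Tap2 are the subunits of the transporter that moves peptides into the endoplasmic reticulum. Tap1 read 8.45, 7.93, 7.77 and 8.28 in controls and 8.07, 8.45, 8.06 and 7.74 in treated animals, a change of -0.03 (adjusted p = 0.92). Tap2 read 10.25, 10.22, 10.43 and 9.90 in controls and 10.03, 10.38, 10.12 and 9.83 in treated animals, a change of -0.11 (adjusted p = 0.633). Both groups overlapped for both genes. Nlrc5, the class I transactivator, read 8.18, 7.87, 8.09 and 8.58 in controls and 8.40, 8.54, 8.51 and 7.92 in treated animals, a change of 0.16 (adjusted p = 0.534). Erap1, which trims peptides in the endoplasmic reticulum, was above background on at most 3 arrays and was not tested.

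The immunoproteasome genes were split. The 8 probes of the 5 genes had a median change of -0.09, against 0.05 over all tested probes. Of the 8, 2 were lower (25%, against 13.8% of all) and 5 lay below 0 (62.5%, against 44.4%). Psmb8, a catalytic subunit induced by interferon-gamma, read 10.47, 10.31, 10.81 and 10.72 in controls and 10.13, 9.88, 8.70 and 8.27 after anti-miR-214. All treated animals lay below all controls, replicates 3 and 4 by over 1 log2 unit and replicates 1 and 2 by less. The means were 10.58 ± 0.23 and 9.24 ± 0.90 (SD, n = 4), a 2.52-fold fall (-1.34, SE 0.36, adjusted p = 0.0211). Its other probe changed by -0.14 (adjusted p = 0.664). Psmb9, encoded next to Tap1, read 9.97, 9.51, 9.95 and 9.70 in controls and 9.60, 10.01, 9.58 and 9.59 in treated animals, a change of -0.09 (adjusted p = 0.697). Psmb10, the remaining catalytic subunit, read 10.98, 10.79, 10.81 and 10.84 in controls and 11.19, 11.14, 11.18 and 10.80 in treated animals, a change of 0.22 (adjusted p = 0.207). In both genes the groups overlapped.

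Psme1 and Psme2 form the PA28 activator, which docks onto the proteasome and eases peptide release. Psme2 read 8.03, 8.35, 8.20 and 8.26 in controls and 7.98, 7.99, 7.48 and 7.50 after anti-miR-214. It fell 1.39-fold (-0.47, SE 0.15, adjusted p = 0.0447) with no overlap, treated replicates 1 and 2 lying close to the lowest control. This call passed in 11 of 23 alternatives and was lost in 6 of the 8 fits that left out 1 array, and on the authors' processed values (adjusted p = 0.0598). Psme1 read 12.21, 12.07, 11.93 and 12.00 in controls and 12.13, 12.32, 12.15 and 12.02 in treated animals, a change of 0.10 (adjusted p = 0.543). The signs of several of these changes depended on the scaling. Quantile normalization gave a median change of 0.05 over all tested probes, scaling arrays to a common median of all probes gave -0.15, and scaling to the median of the tested probes 0.13. Under that last scaling, with its shift included, Psmb10 (0.41), Psme1 (0.34) and H2-Ke6 (0.58) passed as higher, Psmb9 and Tap2 turned to 0.03 and 0.05, and 10 member probes were lower. Under the scaling to the median of all probes Nlrc5 turned to -0.11 and 22 member probes were lower, as were 24.2% of all tested probes. H2-Ke6 encodes an oxidoreductase that lies within the MHC and presents no antigen. In the main scaling it read 11.54, 11.48, 11.65 and 11.51 in controls and 11.78, 11.70, 12.01 and 12.16 in treated animals, with no overlap and a change of 0.37 (adjusted p = 0.0574). It passed as higher with no background correction (adjusted p = 0.0296), with an offset of 50 (0.0407) and with an intensity trend (0.0365).

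Class I was then set against class II. The median changes of -0.39 and -0.32 differed by -0.08. With arrays scaled to a common median they differed by -0.21, at -0.63 and -0.42 over all probes and -0.34 and -0.14 over the tested probes. On each array the mean deviation of the class I probes from their control mean was -0.22, -0.03, -0.67 and -0.74 in anti-miR-214 replicates 1 to 4, against -0.08 to 0.07 in the controls. The class II probes gave -0.30, 0.07, -0.59 and -0.56, against -0.19 to 0.16 in the controls. Both classes were thus lowest in replicates 3 and 4 and near the controls in replicate 2. Class II minus class I was 0.07 ± 0.11 in treated and 0.00 ± 0.12 in control animals (SD, n = 4), a difference smaller than either spread. For single probes, the within-array difference between the brightest class II probe (H2-Ab1) and the brightest class I probe (H2-D1) rose by 0.26 after anti-miR-214, with SDs of 0.09 and 0.19 (exact permutation test, two-sided p = 0.0571). The fall of H2-Ab1 at that probe was not shown to differ from that of H2-D1. The other H2-Ab1 probes changed by -0.83 and -1.84, against -0.72 for that H2-D1 probe. The sign of the difference thus depends on the H2-Ab1 probe used, and those probes were not compared with H2-D1 by a test. Without replicates 3 and 4 the class I median was -0.10 and the class II median -0.11. Within the first slide (3 arrays a group) the medians were -0.35 for both classes, and between the 2 arrays of the second slide they were -0.74 for class I and -0.18 for class II.

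**Figure D3:**
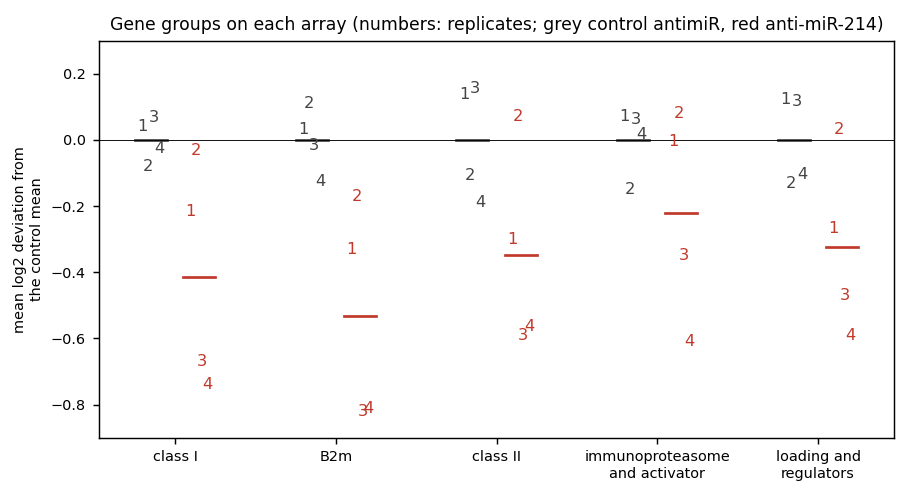
Mean deviation of each gene class from its control mean (log2, vertical axis) on each array, with digits giving the replicate and lines the group means. In every class anti-miR-214 replicates 3 and 4 are lowest, at -0.67 and -0.74 for class I and -0.59 and -0.56 for class II.

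Probes of the same gene disagreed about as often as over the whole array. The 18 genes with several tested probes gave 24 pairs of a further probe with the brightest one. In 8 pairs the within-array difference separated the groups as far as 4 against 4 allows (exact permutation test, two-sided p = 0.0286), which after adjustment over the 24 pairs was 0.0857, so that 0 passed. A limma fit over all 5307 probe pairs of the array, chosen after the data had been seen, passed 7 of the 24 member pairs, against 28.1% of all pairs. Over the array the further probe fell more in 19.4% of pairs and less in 8.76%. In H2-Ab1 (difference -1.38, adjusted p = 0.00173), H2-T10 (-1.48, 0.00476) and Cd74 (-0.74, 0.0127) the further probe fell more. In Psmb8 (1.20, 0.0079), Tapbp (0.87, 0.00398), H2-Eb2 (0.80, 0.0333) and Ciita (0.73, 0.0187) it fell less or moved upward. Of the 11 genes with a probe that fell, 5 thus had probes that differed. H2-M3, H2-Q5 and Psme2 had 1 tested probe each, so no pair of theirs could differ. For H2-Ab1 all 3 probes passed in the main fit, but the brightest passed in 12 of 23 alternatives. Which transcript each probe measures was not tested.

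**Figure D4:**
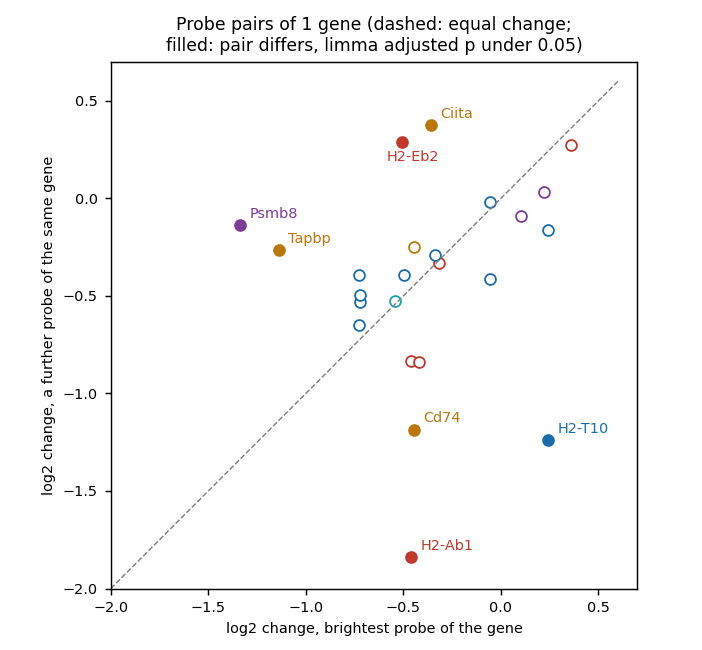
Change of a gene's further probe (log2, vertical axis) against the change of its brightest probe (log2, horizontal axis) for 24 pairs of 18 member genes, with the dashed line marking equal change. Filled points are the 7 pairs that differ by limma over all pairs, and H2-Ab1, H2-T10 and Cd74 lie below the line.

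The other genes of the pathway were read from lists by their brightest probes, of which 9.93% were lower and 12.3% higher over all genes. None of 6 related constitutive proteasome genes (Psmb5, Psmb6, Psmb7, Psme3, Psme4 and Pomp) passed, at an unadjusted p under 0.05 either, and their median change was 0.01. The other 3 Psmb7 probes changed by -0.88 to 0.40. Of 3 tested class I folding genes 2 fell, the chaperone Calr (-1.01, adjusted p = 0.00274) and the disulfide isomerase Pdia3 (-0.96, adjusted p = 0.000991). Among 4 class I-like genes Cd1d1, which presents lipids, fell (-0.52, adjusted p = 0.0266). Of 9 class II processing genes, 5 fell and 2 rose, with a median of -0.55. The proteases Ctss (-0.58), Ctsl (-0.78) and Lgmn (-0.55), the thiol reductase Ifi30 (-0.55) and Sppl2a (-0.99), which removes the last Cd74 fragment, fell. The other Ifi30 probe changed by -0.09 and the other Sppl2a probe by 0.22. The protease Ctsd (1.18) and the ubiquitin ligase Marchf8 (0.55) rose. The Ctsd and Ctsl probes were dim, at 6.86 and 6.55 in controls, where the median level of all tested probes was 7.96.

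By brightest probe, 9.93% of all genes were lower and 12.3% higher. Of 6 tested factors that bind the X and Y boxes, 3 rose and 0 fell. Rfxank changed by 0.39, Nfyb by 0.43 and Creb1 by 1.01, the last with another probe at -0.07. The Rfxank and Creb1 probes were dim, at 6.27 and 6.22 in controls, where the median level of all tested probes was 7.96. Of 12 tested interferon-gamma pathway genes 6 fell and 1 rose, with a median of -0.48. The kinase Jak2 (-0.90), the transcription factors Irf1 (-0.44), Irf2 (-0.61) and Irf9 (-0.41), the GTPase Gbp3 (-0.74) and the chemokine Cxcl10 (-1.20) fell. The receptor chain Ifngr2 rose (0.85) at its brightest probe, while its other probes changed by -0.63 and -0.45. Ifng was not tested. Of 4 costimulation genes Cd40 fell (-0.44) and Icosl rose (0.51), the latter at a dim probe (6.21 in controls).

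Markers of cells that carry MHC molecules moved unevenly beside these values. Over all genes, 9.93% of brightest probes were lower and 12.3% higher. Macrophages are among the cells that bear class II, and their list had 4 of 9 tested members lower (Lyz2, Mrc1, Cd14 and Mertk) and a summed linear signal of 16143 to 18466 in controls and 7342 to 12223 after anti-miR-214. A linear sum gives most weight to bright probes, and the brightest Lyz2 probe had the highest control mean of that list (12.43). That probe changed by -2.32 and the other Lyz2 probes by -0.57 and -0.43. The dendritic cell list had 1 of 7 tested members higher (Siglech, 0.60), 0 lower, and sums of 1130 to 1416 and 1247 to 1519. Its other tested members did not pass and went both ways. Zbtb46 (-0.43), Clec9a (-0.40), Cd209a (-0.43) and Cd83 (-0.02) lay below 0, and Itgax (0.10) and Batf3 (0.30) above. Flt3, Xcr1 and Ccr7 were not tested. In the B cell list Cd79b was the only tested member and did not pass, while Cd79a, Ms4a1, Pax5 and Cd22 were not tested. The pan-leukocyte list had 1 of 4 lower (Cd53, with another probe at 0.16) and sums of 10063 to 14837 and 10736 to 13638. Of 2 tested T cell genes 0 passed, with sums of 210 to 383 and 221 to 420. Endothelial cells, which express class I, had 2 of 3 tested markers lower (Pecam1 and Cdh5) and sums of 2743 to 4543 and 1426 to 3135. The other Pecam1 probes changed by -0.37 and -0.21 and the other Cdh5 probe by -0.27, and Kdr was not tested. The lymph node stroma gene Ccl21a changed by -0.58 (adjusted p = 0.0641). All 6 kidney epithelium markers passed the detection filter, and 0 passed the test, with sums of 45156 to 57167 and 41047 to 58640. The part of these cell types in the changes of the members was not tested.

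The 19 genes that were not tested were mostly undetected on this array. Of all 34 member probes not tested, 30 were detected on 0 arrays. These 34 include further probes of tested genes such as B2m and H2-D1, so an undetected probe need not mean a silent gene. Of the 19 genes, 15 were never detected. They included H2-M1, H2-M9, H2-M11 and the H2-M10 family, H2-Q1, H2-T18, H2-T24, H2-Bl, H2-Ea and H2-Q10, a secreted class I molecule made mainly by liver. H2-M5, H2-Q2 and H2-T3 were above background on 1 array each. Of all 52 genes, 44 lie on chromosome 17, where the mouse MHC is.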

How the data were processed

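Total RNA was taken from whole obstructed kidney, cleaned with DNase treatment, checked on a Bioanalyser and made into biotin-labelled cRNA, per the labels' protocols. The authors deposited a mean bead intensity and a detection p-value for each of 45281 probes on 8 Illumina arrays, called non-normalized per the file headers. The authors also deposited a table of processed intensities and did not state how they were made (upper quartile 148 on each array, medians 20.2 to 20.4, values below 0). Its background correction and scaling are unknown, and it served as an alternative. For scanner, software and array build, details are not given in the sources used here. Columns of other samples numbered 0. Raw arrays correlated at 0.991 or less.

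Groups came from the sample titles. The series' design text counts animals, so the replicates were separate mice. Intensities were processed with neqc of limma 3.58.1 in R 4.3.3 (background from the detection p-values, offset of 16, quantile normalization, log2). The offset shrinks changes of dim probes. Probes with a detection p under 0.05 on at least 4 of 8 arrays were tested with lmFit and eBayes, with Benjamini-Hochberg adjustment over 18601 probes and a threshold of 0.05. No read depth exists for arrays, and the number of arrays limits the precision. Probes of a gene are ranked by mean intensity over all arrays. Array measures, probe pairs and the class contrast used exact permutation tests over the 70 arrangements.

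Gene names came from GEO's platform annotation, with 34885 probes of 1 symbol, 18 of several and 10378 unnamed here. All 52 member genes matched a RefSeq table (GRCm38.p6). The members, lists and rules were chosen with earlier results of these data known. Members were named with every array's value where a probe passed, with the brightest class I and class II probes and 1 probe each of B2m, Cd74, Ciita, Tap1, Tap2, Nlrc5 and the immunoproteasome genes. H2-K1, H2-Aa and H2-Ke6 were added to these after their values were seen. Alternatives covered background correction, scaling, filter, offset, trend, array weights, slide, replicate block, single replicates, probe choice and the authors' processed values.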

Additional observations from a re-analysis of the deposited data

Results flagged for a closer look

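In 7 of 114 groups of 4 arrays, 1 array stood apart from the other 3 by Dixon's 95% criterion (the gap over the range), and chance flags about 1 in 20 groups. Anti-miR-214 replicate 2 was the high one in 3 of them, with log2 intensities of 11.32 for H2-DMa, 10.01 for Psmb9 and 9.06 for Ciita. Anti-miR-214 replicate 4 was the low one for Psmb10, at 10.80, and for the second probe of H2-K1, at 8.70. Among the controls, replicate 4 was low for H2-M2, at 7.95, and replicate 2 was low for the brightest H2-Q6 probe, at 7.80. None of these probes passed the test between groups.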

How the results depend on the processing

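The 15 lower member probes became 9 with only the brightest probe of each gene, 4 on the first slide alone and, among alternatives chosen after seeing the data, 3 without anti-miR-214 replicates 3 and 4 and 0 with the probe gap added as a covariate. The fits with fewer arrays also have less power. Leaving out 1 array at a time gave 7 to 23 lower (7 to 24 called in all), 7 without anti-miR-214 replicate 3 and 9 without control replicate 3, and 23 without anti-miR-214 replicate 2, when H2-Ke6 was called higher. Over all probes the 4761 calls became 2549 on the first slide, 1399 without replicates 3 and 4, 3 with the probe gap, and 2963 to 4823 leaving out 1 array. The class I median of -0.39 moved to -0.10 without replicates 3 and 4 and to -0.074 with the probe gap, and class I minus class II from -0.08 to 0.20 with the probe gap. The immunoproteasome median of -0.09 moved to 0.14 and 0.17 in the same order, and the loading and regulator median of -0.26 to -0.013 without replicates 3 and 4. Leaving out 1 array gave -0.53 to -0.31 for class I, -0.48 to -0.21 for class II, -0.20 to 0.02 for the immunoproteasome and -0.37 to -0.14 for loading and regulators. With the probe gap H2-T10 (0.15), Psmb8 (0.14), Psme1 (-0.051) and Psme2 (0.018) changed sign. Without replicates 3 and 4 Psmb9 (0.024), Tap1 (0.15) and Tap2 (0.0081) did, and Tap1 did with array weights (0.10), on the first slide (0.14) and when 1 array was left out (-0.15 to 0.084, above 0 without anti-miR-214 replicate 4 or control replicates 1 or 4). Nlrc5 (-0.11) did under the scaling to the median of all probes, and Psmb9 (0.031) and Tap2 (0.047) under that to the median of the tested probes. The authors' processed values gave 13 lower member probes, with 11.8% of all tested probes lower. The 7 pairs of probes that limma passed stood against 0 by the adjusted exact test. The cause of these shifts was not tested.

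The groups share replicate numbers, but same-numbered arrays deviated together with correlations of 0.02, 0.06, 0.05 and 0.20, so the numbers were not taken as a pairing. With the replicate block 15 member probes were lower and 4598 of all probes were called. These were not the same 15, since Psme2 did not pass with it (adjusted p = 0.054). Each group has 4 arrays and 6 of the 57 tested member probes were not detected on every array.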
